A study of Homo sapiens with 4 samples.

Results

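HT29 cells cultured for 24 h with lipopolysaccharide (LPS) at 1 ug/mL were compared with HT29 cells kept in medium without it, gene by gene across the transcriptome. Both HT29 and HCT116 are established epithelial lines from human colorectal cancers, grown in the same serum-supplemented medium, and the study treated both with LPS to set up cell models of intestinal inflammation that differ in their glucocorticoid receptor level. There was 1 library for each of the 4 conditions (HT29 control, HT29 LPS, HCT116 control and HCT116 LPS, the HCT116 dose and time being the same) and no repeat culture, so no p-value can be given for HT29 and every interval below covers counting error only. Of 61544 genes in the count table, 24630 had a count in HT29 and 10386 had a mean of at least 5 CPM, counts scaled to a library of 1000000 and normalized by TMM, over both HT29 libraries. A further 559 of these were set aside because their transcript matches another place in the genome nearly exactly, which left 9827 genes, 9413 of them protein coding. They held 90.9% of the counts in each HT29 library. At the edge of the minimum, PECR lay just outside with counts of 83 (control) and 107 (LPS), and TNNT1 just inside with 95 and 94.

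LPS is the outer membrane lipid of Gram-negative bacteria. It is bound by CD14 and MD-2 and signals through the receptor TLR4 and the adaptors MyD88 and TRIF, which release the transcription factor NF-kB from its inhibitors and switch on interferon regulatory factors. In gut epithelium this pathway is known for chemokines that draw in neutrophils, for antimicrobial proteins and for inhibitors that close the response down.

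Total counts were 19105058 for the HT29 control library and 20831247 for the LPS library. Epithelial markers were high in both libraries, with KRT8 at 211351 and 219634 counts and EPCAM at 17033 and 16906. Of the 16 colon epithelium markers, 11 passed the minimum, among them LGALS4 (7005 and 8299 counts), TSPAN8 (6187 and 6136), VIL1 (2637 and 3004) and HNF4A (1470 and 1398). KRT20 (0 and 0 counts), GPA33 (10 and 12), CDX1 (3 and 17) and CDX2 (18 and 39) of the same list were at or near 0. The 17 leukocyte markers summed to 29 counts in the control and 44 with LPS, with 7 at 0 in both libraries, among them CD3E and TYROBP, and none above 11 counts. The 13 fibroblast and endothelial markers summed to 153 and 125 counts, led by COL1A1 with 81 and 59, and DCN, COL1A2 and CDH5 were at 0. In a bulk library, more cells that express a transcript and more RNA per cell cannot be told apart.

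Most HT29 genes differed little between the libraries. The log2 ratio of LPS to control, for which a prior count of 2 was added to the TMM-scaled values, had a median of -0.01 and an SD of 0.18 over the 9827 genes, and 91.5% of them lay within 0.3 of 0. Above 0.58, a fold of about 1.5, lay 35 genes (0.356%), and below -0.58 lay 42 (0.427%). Their levels were low. Of the genes above, 32 had a mean under 20 CPM, as had 39 of those below, against 2538 of all 9827. The 95% counting interval of the ratio lay wholly above 0 for 1655 genes (16.8%) and wholly below 0 for 2035 (20.7%), but wholly above 0.58 for only 8 and wholly below -0.58 for only 1. Spread between cultures is not part of these intervals.

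**Figure D1:**
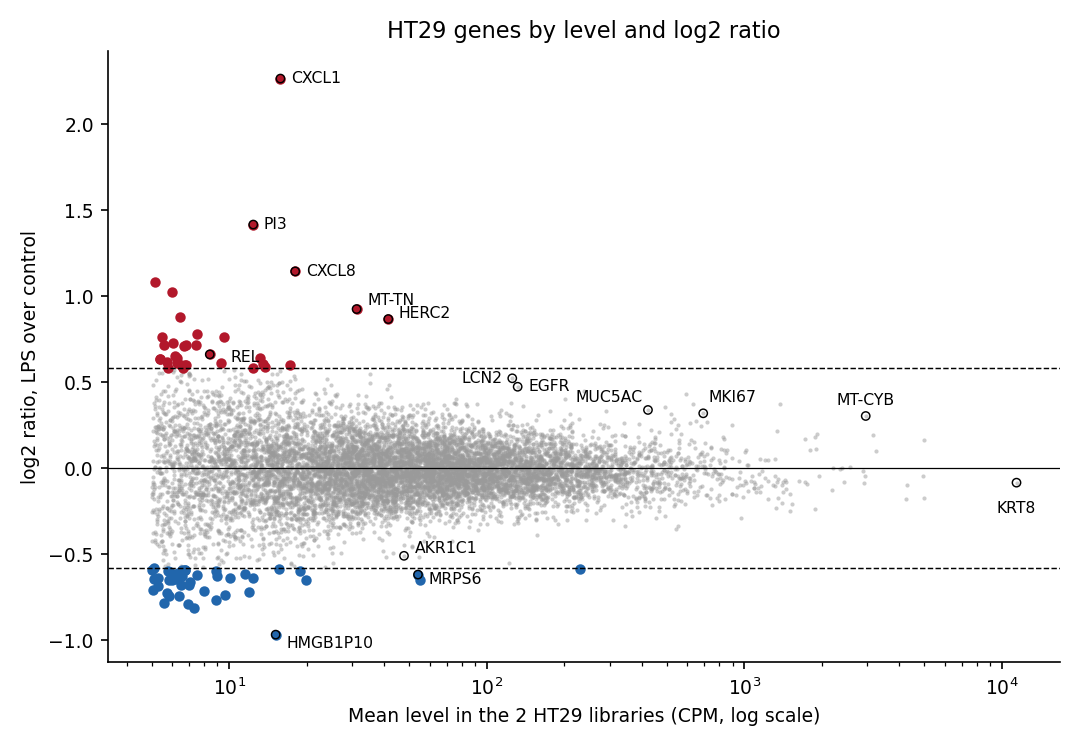
Mean level of each HT29 gene over both libraries (CPM, log scale) against its log2 ratio of LPS to control, with dashed lines at 0.58 and -0.58, genes above in red, genes below in blue, labelled genes circled, and 1 gene above 0.58 not drawn. CXCL1, PI3 and CXCL8 stand highest at 2.26, 1.42 and 1.14, and nearly all coloured genes lie under 20 CPM.

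The neutrophil chemokines carried the largest difference. CXCL1, a ligand of CXCR2 that attracts neutrophils, went from 97 counts in the control to 521 with LPS, a log2 ratio of 2.26 (95% counting interval 1.97 to 2.61). CXCL8, interleukin-8, went from 202 to 494 counts, a log2 ratio of 1.14 (0.91 to 1.40). Both belong to a list of 6 neutrophil chemokines, and the other 4 lay under the minimum of 5 CPM. Among these, CXCL2 went from 11 counts to 57 (2.06, 1.29 to 3.31), CXCL3 had 35 and 90 (1.18, 0.65 to 1.83) and CXCL6 had 17 and 47 (1.24, 0.50 to 2.22). CXCL5 was found with 0 and 3 counts, which is within the floor of 3 counts. All measured members of the family above that floor were thus higher in the LPS library. In HCT116, the same dose and time gave CXCL1 counts of 19 and 7 and CXCL8 counts of 15 and 4. The log2 ratio of HT29 exceeded that of HCT116 by 2.23 to 5.12 for CXCL1 and by 1.25 to 4.99 for CXCL8 (95% counting intervals of the difference). CXCL1, CXCL2 and CXCL3 are close paralogs, and no source used here states how reads that fit several places were counted.

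The promoters of these genes are shown because they share a stretch of letters that NF-kB binds. RefSeq promoters on GRCh38.p14 matched 7966 of the 9827 genes by symbol, and the letters GGAATTTCC were searched on both strands in the 250 bases before each start. They were found in 28 of the 7966 promoters (0.351%), in 117 of all 27305 promoters in the table (0.428%), and in all 6 neutrophil chemokine promoters. Of the 23 promoters matched among genes above 0.58, 3 held them (13%), those of CXCL1, CXCL8 and REL, and of the 30 matched below -0.58 none did. A related form, GGGA and TTTCC with any base between them, which overlaps the first where it reads GGGAATTTCC, was in 38 of the 7966 promoters (0.477%) and in 2 of those 23 (8.70%). A match is a description of these letters and not a bound site, and genes with the match as a whole were not set apart: the 28 with GGAATTTCC had a median log2 ratio of 0.01 and the other 7938 a median of -0.01. The 100 bases before the start are given for CXCL1 at chr4:73869293-73869392 (plus strand), CXCL2 at chr4:74099196-74099295 (minus strand), CXCL3 at chr4:74038690-74038789 (minus strand), CXCL6 at chr4:73836578-73836677 (plus strand), CXCL8 at chr4:73740469-73740568 (plus strand) and REL at chr2:60881474-60881573 (plus strand), each read 5' to 3' toward the start, with matches to either motif in capitals.
CXCL1: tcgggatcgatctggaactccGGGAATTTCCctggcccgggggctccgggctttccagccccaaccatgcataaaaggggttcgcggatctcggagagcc
CXCL2: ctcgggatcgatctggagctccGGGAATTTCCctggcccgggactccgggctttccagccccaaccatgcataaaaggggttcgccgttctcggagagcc
CXCL3: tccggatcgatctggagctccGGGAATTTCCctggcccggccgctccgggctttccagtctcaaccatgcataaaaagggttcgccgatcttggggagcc
CXCL6: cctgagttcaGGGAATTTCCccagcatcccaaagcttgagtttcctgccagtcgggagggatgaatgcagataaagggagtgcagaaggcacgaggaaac
CXCL8: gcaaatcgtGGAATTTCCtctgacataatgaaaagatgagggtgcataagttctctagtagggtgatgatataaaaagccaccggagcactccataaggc
REL: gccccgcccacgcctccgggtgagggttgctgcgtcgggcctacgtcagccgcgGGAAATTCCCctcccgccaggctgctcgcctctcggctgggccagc
The first matching base lay 79 bases before the start in CXCL1 and CXCL3, 78 in CXCL2, 90 in CXCL6, 91 in CXCL8 and 46 in REL. CXCL1, CXCL2 and CXCL3 arose by duplication, so their matches are not independent. The CXCL5 promoter, not printed here, is nearly the same as that of CXCL6 over these 100 bases, so their matches are not independent either.

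Several secreted and surface proteins of mucosal defence were also higher in the LPS library. PI3, which encodes elafin, a secreted inhibitor of neutrophil elastase, had counts of 121 and 359, a log2 ratio of 1.42 (1.13 to 1.74). LCN2, which encodes a protein that starves bacteria of iron, was better covered with 1859 and 2942 counts (log2 ratio 0.52, under the threshold). ZG16B, a secreted lectin-like protein, had 81 and 166 counts (0.88, 0.50 to 1.30), and FUT3, the Lewis blood group fucosyltransferase, had 99 and 189 (0.78, 0.44 to 1.16). Both lay above 0.58. MUC5AC, a gel-forming mucin with 6728 and 9370 counts, had a ratio of 0.34 (0.29 to 0.38), and CEACAM6, an adhesion molecule to which enteric bacteria bind, had 1181 and 1691 counts and a ratio of 0.38 (0.27 to 0.49). Of the 6 measured members of the mucosal defence list, 2 intervals lay above 0 and 1 below, against 16.8% and 20.7% of all genes. Of the genes named above, that list holds only PI3 and LCN2. The only other chemokine that passed the minimum, CXCL16, had a ratio of 0.19 with an interval that included 0.

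Under the minimum of 5 CPM, several defence genes had higher counts with LPS, and these are named after their values were seen. CCL20, which draws dendritic cells and T cells to the mucosa, had 2 and 57 counts (counting interval of the log2 ratio 2.77 to 7.77). PIGR, which transports IgA to the gut lumen, had 6 and 65 (log2 ratio 2.95), and C3, the central complement protein, had 4 and 49 (interval 2.03 to 5.41). ICAM1, to which leukocytes adhere, had 51 and 137 (0.81 to 1.78). SAA1, an acute phase protein, had 0 and 13 counts, and DUOX2, an oxidase of the gut surface, had 0 and 9. Of the 33 genes with a mean between 1 and 5 CPM and no copy in 8 lists (neutrophil and other chemokines, inflammatory cytokines, NF-kB inhibitors, NF-kB survival and adhesion targets, mucosal defence, interferon-stimulated genes and complement), 11 had an interval wholly above 0 and 1 wholly below, against 11.4% and 7.73% of the 2535 genes at that level. The one below was IL34, with 78 and 54 counts. Over all lists, cytokine receptors included, 17 of the 89 genes at that level had an interval above 0 and 2 below. That level is a mean of both libraries, so genes near 0 in the control, such as CCL20, C3 and PIGR, entered only through their LPS counts. These counts of intervals are thus a description and no support for an increase. In HCT116, CCL20 had 2 and 2 counts, PIGR 1 and 1, C3 60 and 39 and ICAM1 178 and 164. IL6 was at 0 counts in both HT29 libraries, so no difference in it could be measured here. The gene overlaps STEAP1B and IL6-AS1, and no source used here states how reads in overlapping genes were counted. By qRT-PCR, the study reported higher IL-6 and TNF-alpha mRNA after LPS in both lines. TNF was listed at 0 as well, but so were RPS18, a ribosomal protein gene that every cell uses, and TAP1, TAP2, TAPBP, PSMB8, PSMB9 and LTB, all of the major histocompatibility region that has alternate contigs, so the 0 of TNF cannot be read as its level.

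**Figure D2:**
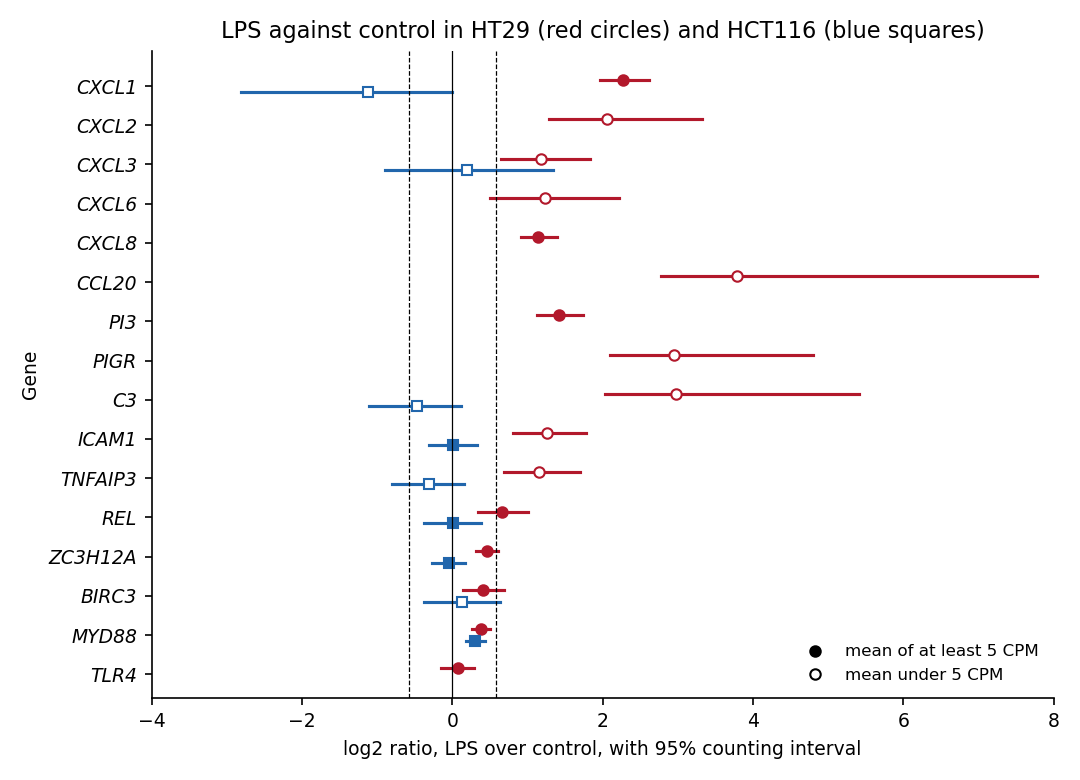
Log2 ratio of LPS to control with its 95% counting interval for 16 genes of inflammation in HT29 (red circles) and HCT116 (blue squares, drawn where both HCT116 libraries together held at least 20 counts), with open symbols for a mean under 5 CPM in that line and dashed lines at 0.58 and -0.58. The HT29 intervals lie above 0 for every gene except TLR4, while the drawn HCT116 intervals include 0 for every gene except MYD88. The genes were chosen with their values known, and NFKBIA and MAP3K8, whose HT29 intervals lie below 0, are not among them. CXCL8 is not drawn in HCT116, where it had 15 and 4 counts and an interval of -3.83 to -0.13.

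The measured genes of the receptor and its signalling chain mostly had ratios near 0, apart from the adaptor MYD88. LY96, which encodes MD-2, and LBP, which carries LPS to CD14, had 0 counts in both HT29 libraries, and TICAM2, the adaptor that bridges TLR4 to TRIF, had 0 and 2. TLR4 went from 313 to 362 counts, a log2 ratio of 0.07 (-0.15 to 0.29), and 0 counts in both HCT116 libraries. MYD88, the adaptor below TLR4, had 925 and 1328 counts, a ratio of 0.38 (0.26 to 0.51), and 986 and 1118 counts in HCT116 (0.31). The 15 measured genes of LPS recognition and adaptors had a median of -0.07, with 0 past 0.58, 1 interval wholly above 0 and 3 wholly below, against 16.8% and 20.7% of all genes. The other members ranged from -0.17 in CD14, the surface protein that hands LPS to TLR4, to 0.17 in TICAM1, which encodes TRIF.

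Within NF-kB itself, REL, which encodes the subunit c-Rel, lay above 0.58 with 117 and 205 counts (0.66, 0.34 to 1.01). The other DNA-binding subunits were closer to 0, with NFKB2 at 556 and 725 counts (0.24), RELB at 273 and 342 (0.19), RELA at 2928 and 3266 (0.02) and NFKB1 at 1435 and 1510 (-0.07). The kinase genes MAP3K8 (294 and 267 counts, -0.28) and CHUK (1165 and 1092, -0.23) were on the other side, with intervals below 0. Over the list of 11 subunits and kinases the median was -0.0013, with 2 intervals wholly above 0 and 3 wholly below, near the shares of all genes (16.8% and 20.7%).

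The 10 measured genes of the list of NF-kB inhibitors split as well, with 4 intervals wholly above 0 and 3 wholly below, against 16.8% and 20.7% of all genes. Their median was -0.02. ZC3H12A, which encodes the RNase regnase-1 that degrades cytokine transcripts, had 624 and 946 counts (0.46, 0.31 to 0.61). NFKBIZ, an atypical inhibitor that is needed for a subset of NF-kB targets, had 831 and 1134 (0.31), and TNFAIP3, which encodes A20, lay under the minimum with 48 and 120 (1.15, 0.69 to 1.70). NFKBIA, which encodes the classical inhibitor, was on the other side with 732 and 713 counts (-0.18, -0.33 to -0.03), and so was CYLD with 236 and 214 (-0.28). BIRC3, an antiapoptotic target, had 182 and 267 counts (0.41, 0.14 to 0.69). In the plot of the 16 genes, the HCT116 ratios were -0.04 for ZC3H12A, 0.12 for BIRC3 and 0.01 for REL. The counting interval of the difference between the lines lay above 0 for ZC3H12A and REL. For BIRC3 it included 0 (-0.29 to 0.87).

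Interferon-stimulated genes were shifted upward by a small amount. Of 25 measured members, 0 lay past 0.58, 13 had an interval wholly above 0 and 1 wholly below, against 16.8% and 20.7% of all genes, and the median was 0.15 against -0.01. IFI6, a mitochondrial antiviral protein, had 114 and 172 counts (0.45, 0.10 to 0.81), IFIT5 114 and 165 (0.39), PARP14 1080 and 1481 (0.32) and TRIM25, a ligase that activates the RNA sensor RIG-I, 2005 and 2625 (0.25). ISG15, a ubiquitin-like modifier, went the other way with 1334 and 1304 counts (-0.17). STAT2, part of the factor that drives these genes, had 335 and 464 counts (0.33, 0.13 to 0.54). In HCT116, the 21 members measured there had a median of -0.01, with 2 intervals above 0 and 5 below, against 17.2% and 22.2% of the genes measured in both lines.

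A form of the interferon-stimulated response element (ISRE), GAAA followed after any 2 bases by GAAA again, was found on either strand in 13 of the 23 promoters matched in this list (56.5%), against 163 of 7966 (2.05%). The 13 genes with them had a median log2 ratio of 0.16 and 8 intervals wholly above 0. The 10 without had a median of -0.02 and 4 such intervals. Over all 7966 promoters, genes with these letters were not set apart: the 163 had a median of -0.0137 and the other 7803 a median of -0.0147. None of the matched promoters of genes past the threshold in either direction held the letters. The last 100 bases before the start are shown for IFIT5, at chr10:89414468-89414567 (plus strand), and PARP14, at chr3:122680739-122680838 (plus strand), as examples with the letters close to the start, matches in capitals.
IFIT5: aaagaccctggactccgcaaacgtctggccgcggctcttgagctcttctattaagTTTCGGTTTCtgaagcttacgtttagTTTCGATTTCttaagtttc
PARP14: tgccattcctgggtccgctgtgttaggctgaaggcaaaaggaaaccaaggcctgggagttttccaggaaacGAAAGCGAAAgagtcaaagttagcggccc
IFIH1 and ISG15, which also hold the letters, had ratios of -0.18 and -0.17, so a match did not go with a higher ratio in every member.

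Integrins and single genes of growth factor signalling and junctions differed in both directions. Of 12 measured integrins, 7 had an interval wholly above 0 and 0 wholly below, against 16.8% and 20.7% of all genes, while 5 had a ratio below 0, and the median was 0.07. The highest were ITGA2 (1909 and 2630 counts, 0.32, 0.24 to 0.41) and ITGB4 (10050 and 13279, 0.26), chains of the collagen and laminin receptors. EGFR, the epidermal growth factor receptor, had 1989 and 3042 counts (0.47, 0.39 to 0.56), whereas its ligand gene HBEGF had 258 and 238 (-0.25), and of the 9 EGFR ligands and receptors measured 3 intervals lay above 0 and 0 below, with a median of 0.04. F11R, which encodes the tight junction protein JAM-A, had 3226 and 2979 counts (-0.25). Of the 16 tight junction genes, 4 intervals lay above 0 and 4 below, near the shares of all genes. MKI67, the proliferation antigen Ki-67, had 11107 and 15261 counts (0.32, 0.28 to 0.35), but the 33 mitosis genes around it had a median of -0.03 with 8 intervals on each side, against 16.8% and 20.7% of all genes.

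The enzymes and receptor that motivated the study were found at very different levels. NR3C1, the glucocorticoid receptor gene, had 1 and 0 counts in HT29, at or under the floor of 3 counts, against 615 and 560 in HCT116. TET2, which oxidizes methylated cytosine, had HT29 counts of 329 and 449 (0.31, 0.10 to 0.52) and HCT116 counts of 485 and 534 (0.27). DNMT3B, a DNA methyltransferase that sets new methylation, lay above 0.58 with 97 and 163 counts (0.60, 0.24 to 0.99) and had 872 and 905 in HCT116 (0.18). Of the 11 measured TET and DNMT genes, 1 lay above 0.58, 5 intervals lay above 0 and 3 below, with a median of -0.01, against 0.356%, 16.8% and 20.7% of all genes. Of the 12 measured genes of the glucocorticoid receptor target list, 10 had a ratio below 0, with a median of -0.08. The median of all genes, -0.01, also lay below 0. The list had 2 intervals on each side of 0, against 16.8% of all genes above and 20.7% below. With the median of genes of like transcript length subtracted, the list median was -0.02. The highest was TXNIP, which restrains thioredoxin and glucose uptake, with 529 and 755 counts (0.37).

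Genes of protein synthesis, respiration and detoxification had medians below that of all genes, by small amounts. The interval counts of these lists stand against 16.8% of all genes above 0 and 20.7% below. Intervals narrow as the level rises, and among genes at 500 CPM or more 31.4% lay above and 49.8% below. The 25 NRF2 targets, which make glutathione, NADPH and detoxifying enzymes, had a median of -0.14, 1 interval above 0 and 14 below. Their lowest members were the aldo-keto reductases AKR1C1 (1011 and 782 counts, -0.51, -0.65 to -0.37), AKR1C3 (3187 and 2684, -0.39) and AKR1C2 (854 and 721, -0.38), close paralogs whose reads may be shared, and NQO1 had 11380 and 10840 (-0.21). ABCC3, an efflux pump of the same list, had 9045 and 11666 counts (0.23). The 9 measured S100 genes, small calcium-binding proteins, had a median of -0.19, with 7 intervals below 0 and 0 above, led by S100P with 2647 and 2338 counts (-0.32, -0.40 to -0.24).

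The 23 cholesterol synthesis genes had a median of -0.11 with 13 intervals below 0 and 1 above. Here too the HT29 interval counts stand against 20.7% of all genes below 0 and 16.8% above. EBP, the sterol isomerase, had 1513 and 1242 counts (-0.42, -0.53 to -0.31) and HMGCS1, an early enzyme of the pathway, had 4803 and 4473 (-0.24). The list was as low in HCT116, at -0.12 with 12 intervals below 0 and 2 above, against 22.2% and 17.2% of the genes measured in both lines. The 33 proteasome genes had a median of -0.10 with 20 intervals below 0 and 2 above, and the 25 genes of the citrate cycle and pentose phosphate pathway a median of -0.08 with 15 and 2. The 16 glycolysis genes had 8 below and 2 above, with GAPDH at -0.13 in HT29 (41119 and 41465 counts) and at 0.08 in HCT116 (46148 and 44622).

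Nuclear and mitochondrial genes of respiration had medians on opposite sides of 0, read against the same 16.8% above and 20.7% below. Among genes at 500 CPM or more those shares were 31.4% and 49.8%. The 32 nuclear genes of complex I had a median of -0.11 with 14 intervals below 0 and 2 above, and the 34 of complexes III to V a median of -0.12 with 21 and 2. NDUFA1, a complex I subunit encoded on the X chromosome, was an exception with 410 and 579 counts (0.36, 0.17 to 0.55). All 15 genes of the mitochondrial genome list reached 5 CPM, and 5 of them were set aside for a copy. The 10 left had a median of 0.25, 8 intervals above 0 and 0 below. MT-ND4L had 9082 and 13488 counts (0.43), MT-CYB 47759 and 64914 (0.30) and MT-ND4 85159 and 104884 (0.16), whereas the ribosomal RNAs MT-RNR1 and MT-RNR2 had ratios within 0.01 of 0. The same 10 genes had a median of 0.34 in HCT116, with all 10 intervals above 0, against 17.2% of the genes measured in both lines. The mitochondrial share of all counts, which can move with RNA and cell quality, was 3.75% in the HT29 control and 4.29% with LPS. The part of RNA quality in these values was not tested. MT-TN, the mitochondrial tRNA gene for asparagine, had 388 and 813 counts (0.93, 0.75 to 1.11) and is 73 bases long.

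Ribosomal protein genes of the small subunit had a median of -0.13 over 20 genes (15 intervals below 0 and 2 above, against 20.7% and 16.8% of all genes). Those of the large subunit had -0.07 over 29 (16 below, 8 above) and the 70 mitochondrial ribosomal protein genes -0.10 (31 below, 2 above). Intervals narrow as the level rises. Among genes of any kind at 500 CPM or more, 49.8% lay below 0 and 31.4% above, and at 100 to 500 CPM 30.8% and 22.9%. RPS20 had 10946 and 9450 counts (-0.35, -0.39 to -0.31) and RPS6 19320 and 17425 (-0.29). MRPS6, of the mitochondrial small subunit, lay below -0.58 with 1181 and 847 counts (-0.62, -0.75 to -0.49). RPL38 was an exception with 2009 and 2734 counts (0.31, 0.22 to 0.39). Many genes of this family have processed pseudogenes, and 17 of 46 large subunit genes and 8 of 28 small subunit genes that reached 5 CPM were set aside for a copy.

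**Figure D3:**
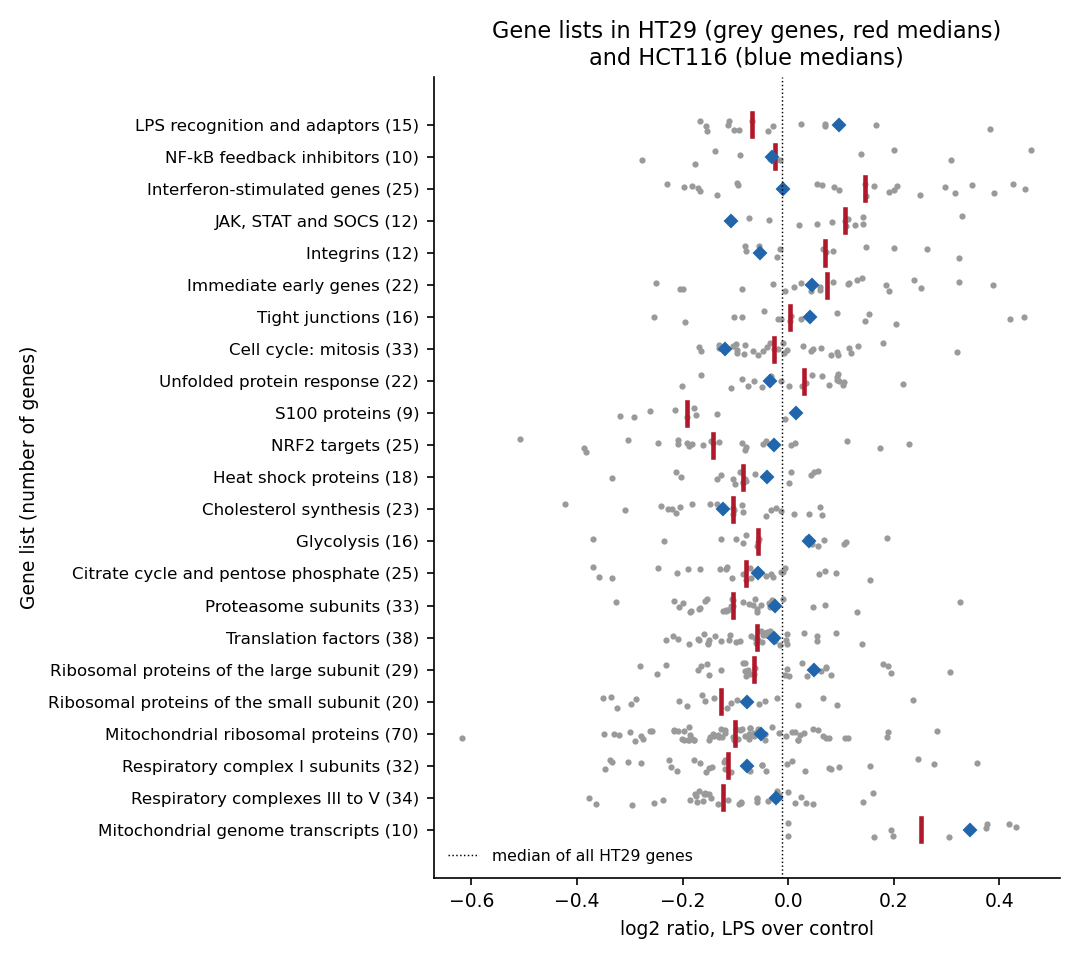
Log2 ratio of LPS to control for the genes of 23 lists, with each HT29 gene as a grey point, the HT29 median of the list as a red bar, the HCT116 median as a blue diamond and the median of all HT29 genes as a dotted line. Interferon-stimulated genes (0.15) and mitochondrial genome transcripts (0.25) stand to the right of the dotted line, and S100 proteins (-0.19), NRF2 targets (-0.14) and respiratory subunits (-0.11 and -0.12) to its left.

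The log2 ratio moved with transcript length in HT29, apart from the shortest class. The 168 genes under 600 bases had a median of -0.02. Genes whose canonical transcript is 1000 to 1999 bases long had a median of -0.07 (1741 genes), those of 4000 to 7999 bases a median of 0.02 (3101 genes) and those of 8000 bases or more a median of 0.09 (876 genes). Of the longest class, 39.2% had an interval wholly above 0 and 8.22% wholly below. Over the 9823 genes with a transcript length, Spearman's rho was 0.28, as a description across genes of 1 library pair. HCT116 showed no such rise, with medians of 0.01 and -0.05 for 1000 to 1999 bases and 8000 bases or more. The part of library preparation in this trend was not tested.

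**Figure D4:**
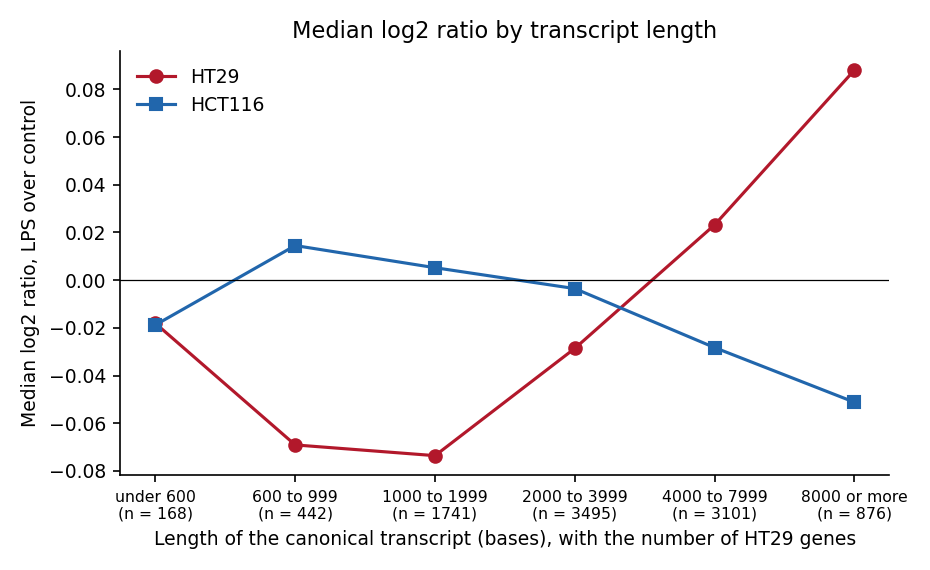
Median log2 ratio of LPS to control for HT29 genes in 6 classes of canonical transcript length, in HT29 (red circles) and, for those also measured there, in HCT116 (blue squares), with the number of HT29 genes under each class. The HT29 medians go from -0.02 under 600 bases to -0.07 at 600 to 1999 bases and 0.09 at 8000 bases or more, while those of HCT116 end at -0.05.

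Several of the lists above hold short transcripts, so their medians were also taken after subtracting the median of the length class. The proteasome median then went from -0.10 to -0.04, mitochondrial ribosomal proteins from -0.10 to -0.05, the large ribosomal subunit from -0.07 to 0.00, complexes III to V from -0.12 to -0.08, the citrate cycle and pentose phosphate pathway from -0.08 to -0.05, glycolysis from -0.06 to -0.02 and NRF2 targets from -0.14 to -0.09. The small ribosomal subunit (-0.10), cholesterol synthesis (-0.07), complex I (-0.09), S100 proteins (-0.16), interferon-stimulated genes (0.12) and mitochondrial genome transcripts (0.32) kept more of their distance. Long transcripts led the gains in CPM beside the mitochondrial ones. FLNA, an actin crosslinker, had 32229 and 40676 counts (0.20), AHNAK, a very large scaffold protein, 22238 and 28492 (0.22), PLEC, a linker of intermediate filaments, 31626 and 39565 (0.18) and AGRN, the basement membrane proteoglycan agrin, 56345 and 66528 (0.10). The largest losses in CPM were in abundant transcripts of housekeeping and keratin genes, among them KRT8 (-0.08), EEF1A1 with 95095 and 93003 counts (-0.17), KRT18 with 81443 and 79344 (-0.18) and FTL, the ferritin light chain, with 36762 and 34373 (-0.24).

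The other large increases were in genes of varied kinds. ODC1-DT, a noncoding RNA divergent from the ornithine decarboxylase gene, had 59 and 140 counts (1.08, 0.66 to 1.57), TMEM42 71 and 161 (1.02), ZNF397 127 and 239 (0.76), PRPF40B 73 and 138 (0.76), ZNF572 82 and 151 (0.73), GID4 92 and 168 (0.72) and CDKL1 76 and 139 (0.72). HERC2, a giant ubiquitin ligase, had HT29 counts of 529 and 1064 (0.87, 0.72 to 1.02) and HCT116 counts of 997 and 676, and 11 pseudogenes carry its name, so its reads may be shared with them. Of the 35 genes above, 23 were protein coding, 8 long noncoding and 3 pseudogenes, against 9413, 287 and 104 of all 9827.

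The largest decreases held pseudogenes and genes of low level. HMGB1P10, a processed pseudogene within TPST2, had 362 and 203 counts (-0.97, -1.23 to -0.72), the only interval wholly below -0.58. FEM1A had 169 and 105 (-0.81), H2AC25, a histone gene, 218 and 143 (-0.74), CCDC167 269 and 179 (-0.72), POLI, a translesion DNA polymerase, 129 and 85 (-0.73) and KPNA5, an importin, 155 and 106 (-0.68). NPM1P39, LINC00680, ZNF837, RPS13P2, ACBD4, LRRC75A, BORCS6 and ENSG00000279059 were also among the 15 lowest, between -0.79 and -0.68. PFKFB4, a regulator of glycolysis induced by hypoxia, lay at -0.66 with 156 and 108 counts. The 24 hypoxia response genes had a median of -0.02.

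Genes past the threshold in HT29 were mostly not past it in HCT116. Of the 35 above, 20 had a mean of at least 5 CPM in HCT116, of which 13 had a ratio above 0 there and 1 lay above 0.58. Over all 9126 genes measured in both lines, 46.1% had an HCT116 ratio above 0 and 0.208% lay above 0.58. Of the 42 below, 35 were measured in HCT116, of which 12 had a ratio above 0 and 1 lay below -0.58 (0.153% of the 9126). Spearman's rho between the ratios of the lines over the 9126 genes was 0.18, as a description. Cultures were not repeated in either line, so no test over cultures was made of how the lines differ.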

How the data were processed

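RNA of HT29 and HCT116 cells was sequenced (150 bp paired-end reads, NEBNext Ultra RNA kit per the labels), with 1 library for each of 4 conditions, grouped by GEO's labels. The authors deposited raw counts per GENCODE gene, made with featureCounts 2.0.1 from HISAT2 2.1.0 alignments on hg38; cutadapt 1.9 and Trimmomatic 0.39 are listed as well in the submitters' processing notes. No source used here states how strand or multiply aligned reads were handled, so reads that overlapping, antisense or near-identical genes share cannot be separated. Names came from GENCODE 44, which matched 61445 of 61544 genes, and the rows with no match held 0.0109% and 0.0112% of the HT29 counts.

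Total counts were 19105058 and 20831247 in HT29. TMM factors over the 4 libraries (edgeR 4.0.16, R 4.3.3) were 0.944 for the HT29 control and 0.953 for HT29 LPS. Log2 ratios used a prior count of 2, and 95% intervals, by the exact Clopper-Pearson method, are of the ratio with no prior (scipy 1.17.1). They cover counting error only, since molecules were not tagged. Differences between the lines have exact conditional 95% intervals. A copy was another locus, alternate contigs included, that covered at least 50% of the canonical transcript at 98% identity or more (minimap2 2.31-r1302). The search covered genes whose mean reached 1 CPM. Of the 559 genes set aside, 10.0% lay past 0.58, from -5.58 to 3.44.

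With 1 library per condition no test was run. The members, the 58 gene lists and the rules were chosen with earlier results of these data known. Named genes are the 15 largest increases and decreases, the 10 largest gains and losses in CPM, up to 4 members past 0.58 in each list or otherwise the 1 with the largest ratio, the cell type markers, and TLR4, MYD88, TNF, IL6, NR3C1, TET2 and GAPDH. Other genes are named as examples after their values were seen. A single gene named by the rule is not reported here because its level can mark sex, and some others named by it are not reported here. Alternatives were other scalings (DESeq2 1.42.0 size factors, TMM within HT29, library size), prior counts, minimums, a threshold of 1, copies kept, protein-coding genes only and thinned counts. Leaving out genes with pseudogenes and subtracting the transcript-length median were added after seeing the data. The scripts were tested on simulated data.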

Additional observations from a re-analysis of the deposited data

Results flagged for a closer look

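Of the 108 named genes, 13 had counting intervals of the log2 ratio wholly on opposite sides of 0 in the 2 cell lines, and these are listed here with their counts without and with LPS and the log2 ratio in each line. The difference was not tested over cultures, since each line has 1 library per condition. Over the 9126 genes measured in both lines, 420 had such opposite intervals and 1117 had intervals on the same side.

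The LPS library was the higher one in HT29 and the lower one in HCT116 for 9 genes. CXCL8 had HT29 counts of 202 and 494 (1.14) and HCT116 counts of 15 and 4 (-1.40), where it lay under 5 CPM. HERC2 had HT29 counts of 529 and 1064 (0.87) and HCT116 counts of 997 and 676 (-0.43). CDKL1 had HT29 counts of 76 and 139 (0.72) and HCT116 counts of 121 and 82 (-0.42). FOSB, an immediate early transcription factor, had HT29 counts of 153 and 221 (0.39) and HCT116 counts of 374 and 249 (-0.46). NDUFA1 had HT29 counts of 410 and 579 (0.36) and HCT116 counts of 576 and 438 (-0.27). RPL38 had HT29 counts of 2009 and 2734 (0.31) and HCT116 counts of 3529 and 2923 (-0.14). MT1E, a metallothionein, had HT29 counts of 909 and 1240 (0.31) and HCT116 counts of 4229 and 3693 (-0.07). PLEC had HT29 counts of 31626 and 39565 (0.18) and HCT116 counts of 48868 and 41691 (-0.10), and AHNAK had HT29 counts of 22238 and 28492 (0.22) and HCT116 counts of 15337 and 11868 (-0.24).

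The other 4 were abundant genes that were lower with LPS in HT29. KRT8 had HT29 counts of 211351 and 219634 (-0.08) and HCT116 counts of 53684 and 49872 (0.02). KRT18 had HT29 counts of 81443 and 79344 (-0.18) and HCT116 counts of 13675 and 12845 (0.04). PKM, the last kinase of glycolysis, had HT29 counts of 79528 and 81768 (-0.10) and HCT116 counts of 65818 and 63465 (0.08). GAPDH had HT29 counts of 41119 and 41465 (-0.13) and HCT116 counts of 46148 and 44622 (0.08).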

How the results depend on the processing

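The count of HT29 genes past 0.58 depended on the minimum level. It was 35 above and 42 below at a mean of 5 CPM, 385 and 276 at a mean of 1 CPM, 3602 and 3743 with no minimum, and 3 and 3 at a mean of 20 CPM. With a threshold of 1 the counts were 5 and 0, with genes with a near-identical copy kept they were 60 and 73, and with protein-coding genes only 23 lay above. The other scalings, prior counts, thinning and leaving out genes with pseudogenes gave 30 to 40 above and 32 to 43 below. No scaling moved the median of all genes by more than 0.0139. Named genes kept their sign in all 1086 recomputed values, and 3 of these lay outside the gene's counting interval, all with library size alone. The other minimums, copies kept and protein-coding genes only do not alter a gene's own ratio, so those of the 1086 values could not differ. Each list median was given a range from the spread of the list's own genes or, for a list of 1 gene, from that gene's counting interval. Of 724 list medians, 682 kept their sign and 6 left that range. These were mitochondrial ribosomal proteins (-0.05) and proteasome subunits (-0.04) with the length class subtracted, other chemokines at a mean of 1 CPM (0.46) and with no minimum (0.45), nuclear and snoRNA host RNAs among protein-coding genes (0.19), and translation factors without genes that have pseudogenes (-0.04). No paired analysis was possible because each condition has 1 library and the result comes from no test, and no replicate could be left out for the same reason. Genes under 20 CPM have wide counting intervals, and IL6 and NR3C1 were at or under 3 counts.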

Other observations

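Zinc finger genes, a class looked at after the values were seen, had a median log2 ratio of 0.03 over 285 members, with 4 above 0.58, among them ZNF397 and ZNF572, and 1 below. Of their intervals, 19.6% lay wholly above 0 and 9.12% wholly below, against 16.8% and 20.7% of all genes. The 143 with a transcript of at least 4000 bases had a median of 0.07, and the 142 shorter ones a median of -0.02.

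Immediate early genes had a median of 0.07 over 22 members, with 8 intervals above 0 and 2 below, against 16.8% and 20.7% of all genes. In HCT116 the list had 8 above and 6 below, against 17.2% and 22.2% of the genes measured in both lines. FOSB had 153 and 221 counts (0.39), EGR1 788 and 987 (0.19) and MYC 3811 and 4624 (0.14), while FOS had 908 and 840 (-0.25). Below 5 CPM, where genes are named after their values were seen, IL6R, the receptor chain for interleukin-6, went from 109 to 55 counts (-1.10, -1.62 to -0.65), and from 383 to 321 in HCT116. IRF7, a regulator of interferon genes whose transcript has a copy elsewhere in the genome, had HT29 counts of 21 and 113 and HCT116 counts of 50 and 27.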
